A study of Fragaria vesca with 3 samples.

Results

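The regions described here were the peaks of FvSEP3 at the ends of genes, defined as the entries of the authors' merged peak list whose deposited position class began with 3' UTR or downstream. There were 635 such entries among 13283 merged entries (4.78%, 95% Wilson interval 4.43 to 5.16), with 516 in 3' UTRs and 119 just downstream of a gene, a class the authors limited to 300 bp. They were assigned to 622 of the 10674 genes with any merged entry. The other 12648 entries served as the comparison. The class was the authors' annotation and used no fold enrichment or gene function. The merged list itself holds only peaks found in both replicates, and 0 replicate peaks had a fold under 2. These limits applied to gene ends and to the other entries alike. Recurrence between replicates was therefore read from each replicate's own list.

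FvSEP3 was assayed by DNA affinity purification sequencing (DAP-seq), in which a protein made outside the cell is incubated with a library of bare genomic DNA fragments and the fragments it retains are sequenced. The DNA came from fruit of wild-type Fragaria vesca, the woodland strawberry, collected 30 days post anthesis. The 3 samples were 2 IP replicates, called independent biological replicates by the submitters, and 1 Input library, whose own values were not used here. The lists give no read counts, and sequencing depth is therefore unknown.

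SEPALLATA proteins are MADS-domain transcription factors that bind short AT-rich elements called CArG boxes and that act with partner MADS-domain proteins in flower organs and fruits. Such elements are best known from the DNA before a gene's start, but they also occur in introns and behind the last exon, where a 3' UTR can lie next to the promoter of a neighbouring gene. Purified DNA carries no chromatin, so DAP-seq shows where a protein can bind and not where it binds in a fruit cell.

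Gene-end peaks were about as strong as the others. Fold enrichment, the authors' ratio of signal to background for each peak, had a median of 3.12 at gene ends, with quartiles of 2.80 and 3.48, and a median of 3.12 elsewhere, with quartiles of 2.81 and 3.47. These are the authors' means of both replicates. In replicate 1 the medians were 3.13 at gene ends and 3.12 elsewhere, and in replicate 2 they were 3.08 and 3.12. The difference was 0.0128 in replicate 1 and -0.0330 in replicate 2, so the replicates lay on opposite sides of 0. An exact two-sided sign-flip test over the replicates gave p = 1, and the smallest p that 2 replicates can give is 0.5, so no difference described here could pass a threshold of 0.05. Peaks of 1 library share their source, and no test over peaks was made.

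The strongest peaks of the merged list were not at gene ends. The gene-end values ran up to 4.65, against 7.38 elsewhere, where 27 entries exceeded 5. Of the gene-end entries 27 (4.25%) exceeded a mean fold of 4, against 729 (5.76%) of the others. The median −log10 p-value of the peak caller was 13.05 at gene ends and 13.07 elsewhere, and the median length was 391 bp at gene ends and 395 bp elsewhere. Downstream peaks had somewhat higher medians than 3' UTR peaks, 3.22 against 3.10 in replicate 1 and 3.15 against 3.08 in replicate 2. That difference of 0.123 and 0.0689 had the same sign in both replicates. Over all peaks of each replicate's own list the medians lay closer together. They were 3.056 downstream and 3.014 in 3' UTRs in replicate 1, and 3.001 and 2.996 in replicate 2.

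**Figure D1:**
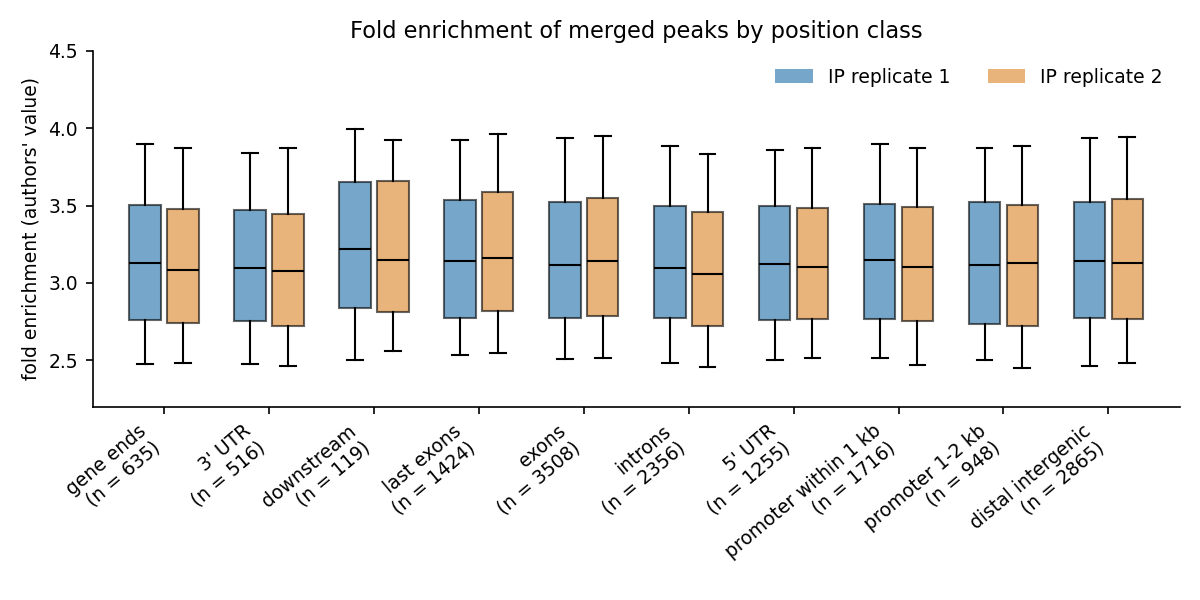
Fold enrichment of merged peaks by position class and IP replicate, with the authors' value on the vertical axis. Lines mark medians, boxes the quartiles and whiskers the 10th and 90th percentiles over the peaks of a class; last exons are also counted among exons. The boxes of all classes overlap, and the medians at gene ends were 3.13 and 3.08.

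The level did not have the same order on every chromosome. Gene ends held between 4.37% and 5.43% of the merged entries of the 7 chromosomes. Their median fold was above that of the other entries on 4 chromosomes and below it on 3, with differences between -0.159 on chromosome 5 and 0.108 on chromosome 2. Another 6 gene-end entries lay on 2 contigs, with 5 on contig_1.

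The most enriched gene-end peak was assigned to FvH4_4g04071, a gene with no description, on chromosome 4 from 3537461 to 3537782 in the positions the authors deposited (genome build not given in the sources used). Its fold was 4.58 in replicate 1 and 4.72 in replicate 2, and it ranked 75 among all merged entries. FvH4_5g22990 followed with 4.804 and 4.45, on chromosome 5 from 14338506 to 14338779. Its description is probable transcription factor KAN2, of a family that sets the lower face of leaves and floral organs in Arabidopsis. This peak lay 5073 bp behind the gene's start, and a 5' UTR peak of the same gene reached only 2.68 and 2.77, so the end exceeded the start in both replicates.

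FvH4_5g20900, a subunit of the H/ACA ribonucleoprotein complex that modifies ribosomal RNA, had 4.02 and 4.56. Whether the genes of these strong peaks share functions was not tested. FvH4_2g38400, a tubulin beta chain of the microtubules, had 4.04 and 4.36, and FvH4_1g02080, described as mitotic apparatus protein p62-like, had 3.97 and 4.52. Both replicate peaks behind the FvH4_1g02080 entry were classed as exonic. FvH4_5g07670, an uncharacterized protein, had 4.28 and 4.26 at a 3' UTR entry and 3.15 and 3.21 in its promoter. The replicate 2 peak behind the 3' UTR entry was assigned to another gene, FvH4_5g07680. FvH4_5g30060, an mRNA turnover protein homolog, had 4.94 in replicate 1 and 3.48 in replicate 2, so the replicates differed more on this gene than on the others named so far. The replicate 1 peak of FvH4_5g30060 was classed as exonic, and only its replicate 2 peak as 3' UTR.

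Among downstream peaks the highest lay behind FvH4_1g28434, an uncharacterized protein, on chromosome 1 from 20446732 to 20447150, with folds of 3.97 and 4.81. FvH4_4g12701, with no description, had 4.17 and 4.34. FvH4_6g49640, also uncharacterized, had 4.55 and 3.81. The next downstream peaks belonged to described genes. FvH4_6g15110, a putative RING-H2 finger protein of the ATL family of ubiquitin ligases, had 4.39 and 3.89 at 1853 bp from its start. FvH4_1g30150, the aspartic proteinase PCS1, which keeps embryo and reproductive cells alive in Arabidopsis, had 4.22 and 4.03 at 1214 bp. Both replicate peaks behind the PCS1 entry were classed as distal intergenic. The replicate 1 peak behind the FvH4_6g15110 entry was classed as exonic.

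**Figure D2:**
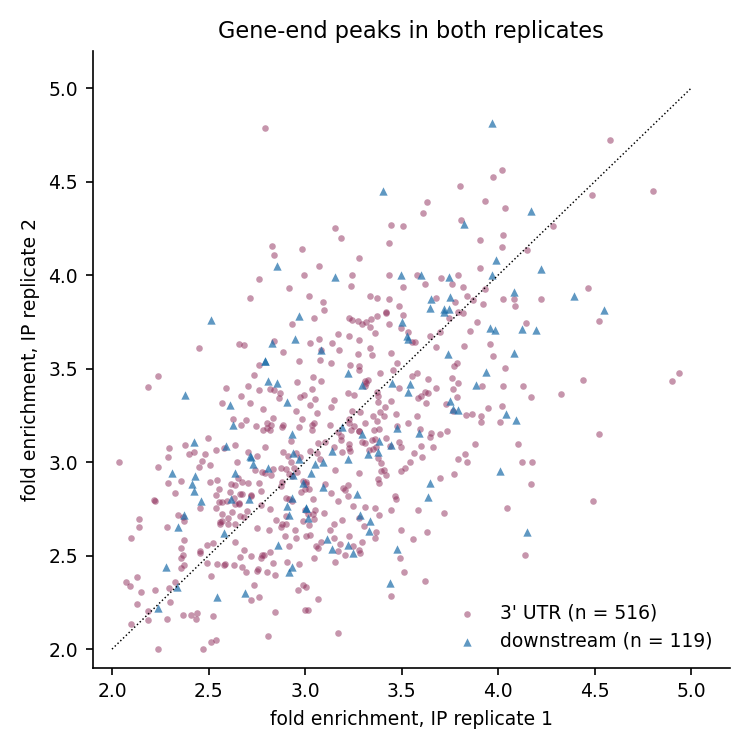
Fold enrichment of each of the 635 gene-end peaks in IP replicate 1 (horizontal) and IP replicate 2 (vertical), with 3' UTR peaks as circles and downstream peaks as triangles; the dotted line marks equal values. The points spread around the line without a shift to either side, with replicate 1 higher in 323 of 635.

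Replicate values of single gene-end peaks spread about as far as those of other peaks. The absolute difference between the replicates had a median of 0.330 at gene ends and 0.342 elsewhere, and 25% of gene-end peaks differed by more than 0.559. Pearson's r between the replicates was 0.552 over gene-end peaks and 0.561 over the others, and Spearman's rho was 0.550 and 0.534. These are correlations across peaks, which are not independent and share the libraries. The widest gap belonged to FvH4_4g14980, RAN GTPase-activating protein 2, a regulator of nuclear transport, with 2.79 in replicate 1 and 4.79 in replicate 2. FvH4_5g29781, with no description, had 4.49 and 2.79. For single genes the replicates could therefore differ by more than the whole distance between the quartiles of gene-end peaks.

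Position classes were mostly stable between the lists. For 530 of the 635 gene-end entries (83.5%) both replicate peaks also carried a gene-end class, for 55 only 1 did, and for 50 neither did. The replicate peaks behind gene-end entries that bore another class were in exons in 87 cases, distal intergenic in 45, in introns in 16 and in promoters or 5' UTRs in the few others. An example is FvH4_4g14980, whose replicate peaks were both classed as exonic. The detailed class of the merged entry returned in both replicates for 81.1% of gene-end entries and 81.8% of other entries. The assigned gene was the same in both replicates for 623 gene-end entries (98.1%), against 98.4% of the others.

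In both replicate lists a smaller share of gene-end peaks than of other peaks was found again in the other replicate. Of the 1001 gene-end peaks in the replicate 1 list, 658 (65.7%, Wilson interval 62.7 to 68.6) shared at least 1 bp with a peak of replicate 2, against 12939 of 18297 other peaks (70.7%, 70.1 to 71.4). Of the 1113 gene-end peaks in the replicate 2 list, 629 (56.5%, 53.6 to 59.4) did so with a peak of replicate 1, against 62.3% (61.7 to 63.0) of the others. The difference was -4.98 percentage points in replicate 1 and -5.82 in replicate 2, with the same sign in both. The exact sign-flip test could give no p below 0.5, and it gave that value. Both directions compare the same pair of lists, so they are not separate repeats of the comparison. Intervals cover counting error only.

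Last exons lie next to gene ends and recurred more often, 78.6% in replicate 1 and 64.7% in replicate 2. The share of 3' UTR peaks was the lowest of all classes in both lists, 64.8% and 56.1%. Downstream peaks recurred at 69.8% and 58.5%, with wide intervals of 63.0 to 75.8 and 51.2 to 65.4. Against last exons alone, gene ends were 12.8 percentage points lower in replicate 1 and 8.17 lower in replicate 2.

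**Figure D3:**
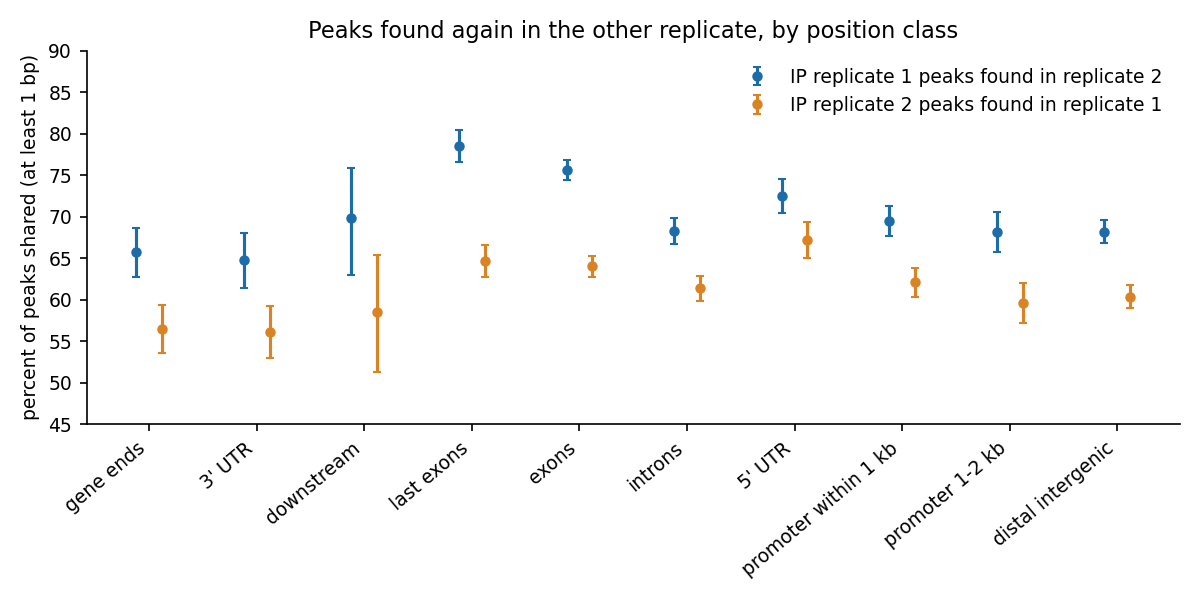
Percent of the peaks of each replicate list that overlapped a peak of the other replicate by at least 1 bp, by position class; bars are 95% Wilson intervals (counting error only), the vertical axis starts at 45%, and last exons are also counted among exons. Gene ends lay at 65.7% and 56.5%, below last exons at 78.6% and 64.7%.

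The same order held at each level of enrichment. With each replicate list divided by fold into 4 parts of equal size, 56.7% of gene-end peaks in the weakest part of replicate 1 recurred, against 59.0% of other peaks, and 76.1% in the strongest part, against 81.0%. In replicate 2 the weakest part gave 39.7% at gene ends and 47.2% elsewhere, and the strongest 71.4% and 76.2%. The middle parts showed the same order in both lists. The Wilson intervals of gene ends and other peaks overlapped in every part but the weakest of replicate 2. There they were 34.3 to 45.4 at gene ends and 45.8 to 48.5 elsewhere. In the strongest part of replicate 1 they were 70.2 to 81.1 and 79.9 to 82.2. The median fold in each replicate's own list was 3.02 at gene ends and 3.05 elsewhere in replicate 1. In replicate 2 the gene-end median minus that of the others was -0.00824. With only peaks of a −log10 q-value of at least 10 in both lists, the difference was -2.40 percentage points, smaller in size than with all peaks.

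The share of gene-end peaks among all peaks was 5.19% in replicate 1 and 5.10% in replicate 2 (mean 5.14% ± 0.0615, SD, n = 2). It was 4.78% in the merged list, which holds only peaks found in both.

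Most gene-end peaks lay within a few kilobases of the assigned gene's start. Deposited distances are signed, with negative values upstream of the start. Their median was 1962 bp at gene ends, with quartiles of 966.5 and 3042 bp, and 967 bp in last exons. For the other entries the median was 349 bp, with quartiles of -562.25 and 1451 bp. Of those entries 33.9% lay upstream, so their median is not a typical distance from a start. The median was 2079 bp for 3' UTR peaks and 1385 bp for downstream peaks. From the start, 17 gene-end entries lay within 500 bp, 92 from 500 to 1000 bp and 158 from 1000 to 2000 bp. Another 147 lay at 2000 to 3000 bp, 119 at 3000 to 5000 bp and 43 farther off. The farthest belonged to FvH4_4g00010, importin-11, a carrier of proteins into the nucleus, at 14598 bp with folds of 2.93 and 3.74. Median fold changed little with distance, between 3.05 and 3.21 over these bands.

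**Figure D4:**
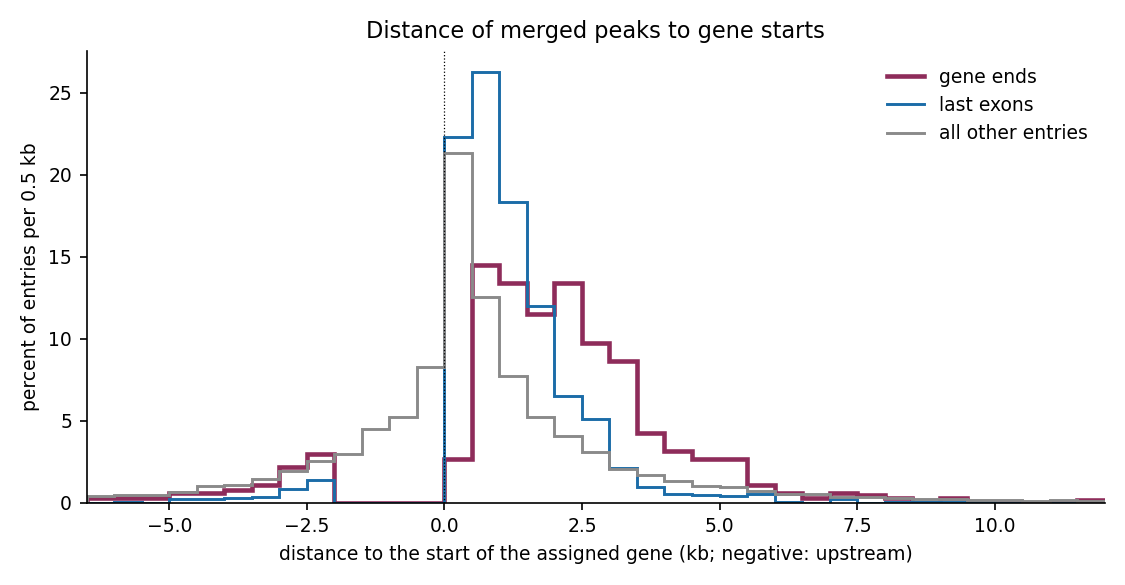
Percent of entries per 0.5 kb of deposited distance to the assigned gene's start (horizontal, kb; negative values lie upstream), for gene ends, last exons and all other entries of the merged list, cut at 12 kb. Gene-end entries reached farther behind the start than those of last exons (medians of 1962 and 967 bp), and none lay in the 2 kb before a start, where the annotation gives the class promoter.

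Not every gene-end peak lay behind the gene it was assigned to. In 59 entries (9.29%) the peak lay upstream of the assigned gene's start, 52 of them in 3' UTRs and 7 downstream. All of these were at least 2003 bp upstream, with a median of -2875 bp, because entries up to 2 kb upstream are classed as promoters (2664 of 2664 merged promoter entries lay there). The 59 entries had a median fold of 3.22 in replicate 1 and 2.81 in replicate 2, against 3.10 and 3.10 for the 576 entries downstream of their gene's start, so the replicates disagreed on the sign of that difference. Exon and intron classes name the gene that holds the peak, and of the 228 such entries upstream of their assigned gene 219 lay in another gene. For most of the 59 peaks the description may therefore be that of a neighbour and not of the gene whose end holds the peak. The strongest of them, chosen after its value was seen, was assigned to FvH4_5g30091, a gene with no description, at a distance of -4246 bp from its start, with folds of 3.803 and 4.48.

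A peak downstream of its assigned gene's start can belong to another gene too, since the entries give no gene end or strand. Of all exon and intron entries, 411 of 5864 (7.01%) lay in a gene other than the assigned one, and 192 of these were downstream of the start. In last exons the share was 8.64%. The class of a gene-end peak names no gene, so the same count could not be made for gene ends.

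Many genes with a peak at the end had another peak. Of the 622 genes, 193 (31.0%) also had an entry of another class and 429 had gene-end entries only. Exons held another entry in 63 of the genes, distal intergenic positions in 55, introns in 40, promoters within 1 kb in 28, 5' UTRs in 25 and promoters at 1 to 2 kb in 20. Counting all classes, 200 (32.2%) had at least 2 merged entries, against 19.0% of the 10052 genes without a gene-end entry. A gene with more peaks has more chances to be counted in any class. Among genes with a peak in a promoter within 1 kb the share was 30.8%, among those with one in an exon 27.5%, and among those with a distal intergenic one 38.3%, so gene ends lay within the range of the other classes.

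A peak at the start as well as the end, meaning an entry in a promoter or 5' UTR, was found in 71 genes, giving 74 pairs of entries a median of 2614.5 bp apart. The end was higher than the start in 34 of 74 pairs, with a median fold of 3.03 at the end and 3.14 at the start. The end was higher in both replicates in 18 pairs and lower in both in 28. After KAN2, the widest excess of the end was at FvH4_3g45580, an uncharacterized protein chosen after its values were seen, with 3.60 and 4.002 downstream against 2.19 and 2.39 in its 5' UTR. The reverse was seen at FvH4_4g17990, the 40S ribosomal protein S21-2, with 2.64 and 2.94 downstream and 3.51 and 4.13 in its 5' UTR, also chosen after its values were seen.

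Several gene-end entries fell on the same gene in 11 cases. FvH4_2g06360, a cyclin-dependent kinase inhibitor that holds back the cell cycle, had entries 3144 and 2245 bp behind its start. The farther one had folds of 3.48 and 3.53, and the nearer one 3.18 and 3.12. FvH4_3g02090, peroxidase 42, had 1 entry on either side, at 2916 bp with 4.15 and 3.74 and at -2928 bp with 3.13 and 2.64. The upstream entry does not lie behind this gene. FvH4_6g42410, a nucleobase-ascorbate transporter, had the same arrangement, and its replicates ordered its entries in opposite ways, with 2.84 and 4.11 behind the start and 3.63 and 2.62 upstream. The replicate 1 peak of that upstream entry was classed as promoter. FvH4_6g26690, a DnaJ chaperone homolog, had 2.90 and 2.81 at 2884 bp and 3.58 and 3.25 at 4104 bp. FvH4_6g48720, an uncharacterized protein, had 4.02 and 3.41 at 1893 bp and 2.51 and 2.04 at 723 bp. FvH4_c1g00140 on contig_1, with no description, took 4 gene-end entries between 625 and 7211 bp from its start. Their mean −log10 p-values from the peak caller ran from 83.5 to 141, against a median of 13.05 at gene ends. Their mean folds were only 2.50 to 2.88. Read depth on this contig is unknown, and its part in these values was not tested.

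The functions of the assigned genes were read from the deposited descriptions with 33 lists of words, and no set test was made. Entries upstream of their assigned gene are included, although the description may be that of a neighbour. They were 3 of the 20 F-box entries, 1 of the 17 ribosomal protein entries and 1 of the 3 homeobox entries, among others. Among all genes with a merged entry, 5.83% had one at a gene end, and among the 2585 genes of the named lists it was 153 (5.92%). Of the 33 lists 19 lay above 5.83% and 14 below. The Wilson interval held the value for all genes in 31 lists and lay above it for ribosomal proteins and below it for receptor-like and leucine-rich repeat kinases. With 33 lists looked at, such intervals are a description. Genes without a description made up 10.9% of those with a gene-end entry and 11.3% of the others.

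**Figure D5:**
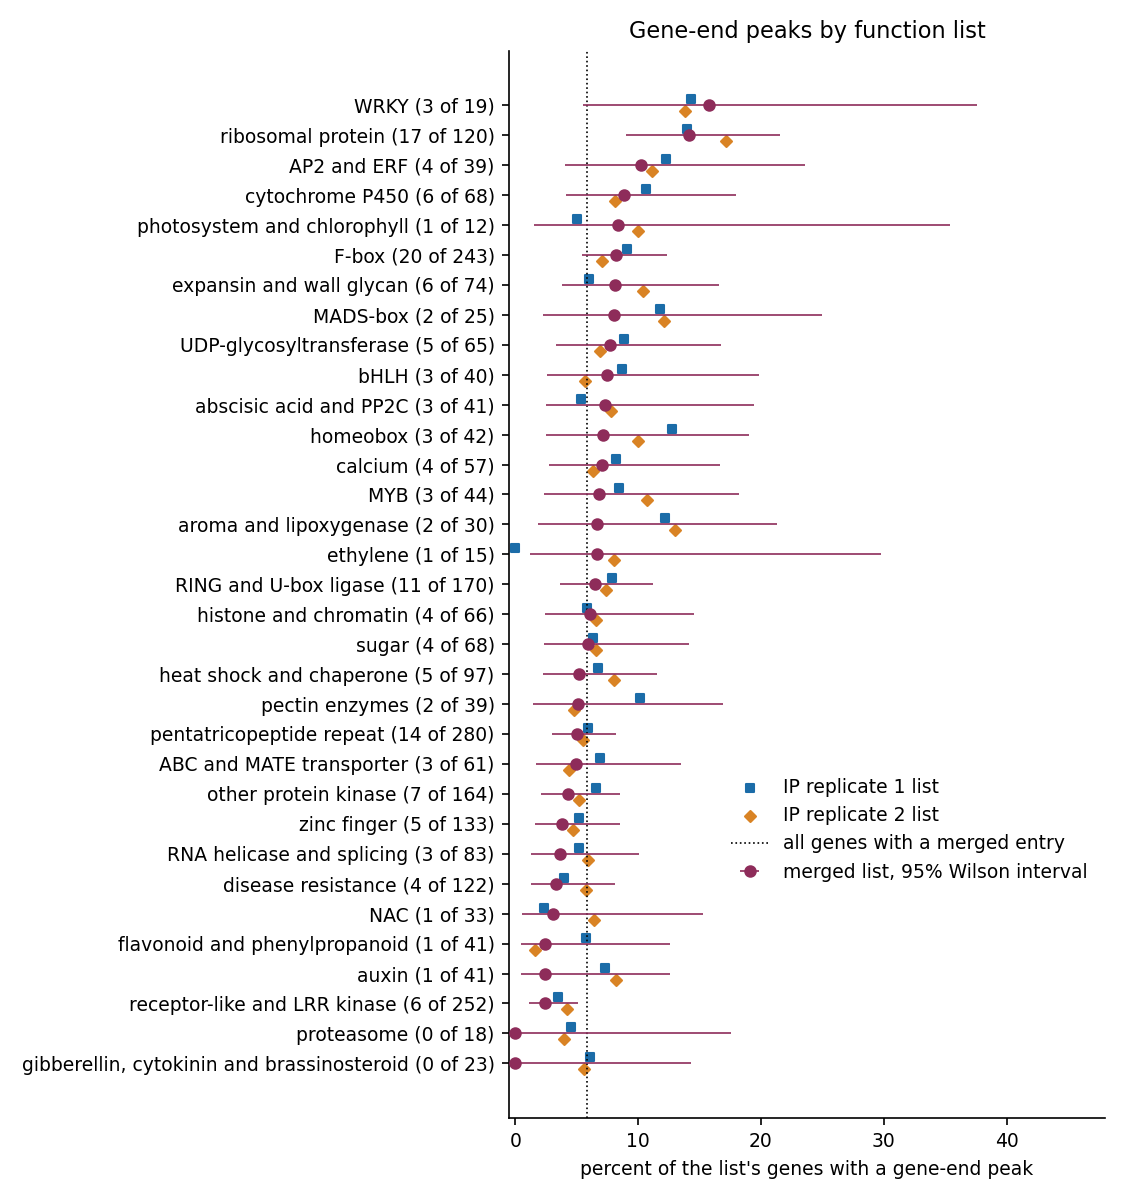
Percent of the genes of each function list that had a gene-end peak, with counts in the row labels; circles are the merged list with 95% Wilson intervals (counting error only), squares and diamonds the lists of IP replicates 1 and 2, and the dotted line marks 5.83% of all genes with a merged entry. Ribosomal proteins lay right of the line in all 3 lists and receptor-like kinases left of it in all 3.

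Ribosomal proteins, the structural proteins of the ribosome, had a gene-end peak in 17 of 120 genes (14.2%, interval 9.04 to 21.5). In the replicate lists the numbers were 20 of 143 (13.99%) in replicate 1 and 29 of 169 (17.2%) in replicate 2, against 6.92% and 6.91% of all genes with a peak in those lists. By their descriptions 11 of 83 cytosolic 40S or 60S genes and 6 of 24 chloroplast genes or those described as 30S or 50S were among them, and 0 of 9 mitochondrial ones. The peaks themselves were not strong, with a median fold of 2.98 at gene ends and 3.05 at the other entries of the list. FvH4_6g45210, the chloroplastic 30S ribosomal protein 3-like, had the highest mean of both replicates, with 4.08 and 3.91, downstream of the gene on chromosome 6 from 34740595 to 34741421, although both replicate peaks were classed as exonic. FvH4_3g08970, chloroplastic 30S ribosomal protein S5, had 3.61 and 4.33 in its 3' UTR. Among cytosolic proteins FvH4_6g36980 (60S L26-1-like) had 3.51 and 3.94, at 601 bp from the start.

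The position of ribosomal gene-end peaks was closer to the start than that of gene-end peaks in general, with a median distance of 1627 bp against 1962 bp for all 635. Gene length was not analysed here, and its part in the count was not tested. The list also had more distal intergenic and intronic entries and fewer exonic ones than all genes, with 27.03% against 21.6%, 25% against 17.7% and 12.8% against 26.4%. Of the 148 entries of the list 17 (11.5%) were at gene ends. Ribosomal proteins, tubulins, histones and F-box proteins belong to families of similar genes, and the placing of reads from near-identical copies is not described in the sources used.

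F-box proteins, which choose the targets of a class of ubiquitin ligases, had gene-end peaks in 20 of 243 genes (8.23%, 5.39 to 12.4). At a −log10 q of at least 10 it was 7 of 150 (4.67%), below the 5.33% of all genes. FvH4_1g15890, an FBD-associated F-box protein, led with 3.91 and 4.04. The median fold of the 20 peaks was 2.90, against 3.14 for the other entries of the list. RING and U-box ligases had 11 of 170 (6.47%), among them ATL35 given above. One of the 11 was matched by a word only, FvH4_1g04490, described as CONTINUOUS VASCULAR RING. The proteasome list had 0 of 18 genes, which allows a share of up to 16.7%, taken as 3 divided by the number of genes. The Wilson upper limit was 17.6%.

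Receptor-like and leucine-rich repeat kinases, which sense signals at the cell surface, had 6 of 252 genes (2.38%, 1.10 to 5.10). The replicate lists gave 3.44% and 4.18%, also below the 6.92% and 6.91% of all genes. FvH4_6g22890, a probable inactive leucine-rich repeat receptor-like kinase, had 3.58 and 4.002. Of the 6, FvH4_2g28260, a pollen-specific leucine-rich repeat extensin-like protein, and FvH4_4g27140, a putative leucine-rich repeat-containing protein, are not described as kinases. Of all entries of this list, 31.6% lay in exons and 17.5% in promoters within 1 kb, against 26.4% and 12.9% of the entries of all genes. At a −log10 q of at least 10 the list had 5 of 164 (3.05%, 1.31 to 6.94), and the interval then held the 5.33% of all genes. Other protein kinases had 7 of 164 (4.27%), with FvH4_4g23170 (PBS1, a kinase watched over by an immune receptor in Arabidopsis) at 3.97 and 3.57. Disease resistance proteins had 4 of 122 (3.28%), led by FvH4_3g44042, a TMV resistance protein N-like gene, at 3.13 and 3.53. The calcium list had 4 of 57 (7.02%), with FvH4_1g30270, calmodulin, at 3.19 and 4.198.

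The transcription factor families read from lists had 24 of 370 genes with a gene-end peak (6.49%, 4.397 to 9.47). Factors of other families, such as KAN2, are not in this count. The MADS-box list, which is FvSEP3's own family, had 2 of 25. FvH4_1g18960, agamous-like AGL18, which delays flowering in Arabidopsis, had 2.93 and 2.92 in its 3' UTR on chromosome 1 from 11247918 to 11248183. FvH4_5g34740, agamous-like AGL61, which acts in the central cell of the Arabidopsis ovule, had 2.52 and 2.57 on chromosome 5 from 25441159 to 25441426. Both lay below the gene-end median of 3.12. Each gene also had a stronger promoter entry, with 3.69 and 4.19 for AGL18 and 2.71 and 3.03 for AGL61. In the replicate lists 4 of 34 (11.8%, 4.67 to 26.6) and 4 of 33 (12.1%, 4.82 to 27.3) MADS-box genes had a gene-end peak. Among all genes with a peak in those lists it was 6.92% and 6.91%. At a −log10 q of at least 10 the MADS-box list had 0 of 19, which allows up to 15.8%.

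WRKY factors, many of them regulators of defence, had 3 of 19 (15.8%, 5.52 to 37.6). Of these 3 entries 1 lay upstream of its assigned gene's start. FvH4_6g09740 (WRKY70) had 4.08 and 3.87 on chromosome 6 from 5804094 to 5804431, and FvH4_6g49140 (WRKY72) had 3.27 and 3.58. AP2 and ERF factors had 4 of 39 (10.3%). FvH4_4g17630 (ERF086) had 3.64 and 3.45, but its peak lay upstream of the gene at -4305 bp and not behind it. FvH4_2g34020 (RAP2-1-like) had 3.62 and 3.37 at 1598 bp behind the start.

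Homeobox genes had 3 of 42. FvH4_4g32650, WUSCHEL-related homeobox 2-like, of a family that patterns embryos and meristems, had 3.91 and 4.19 on chromosome 4 from 31234093 to 31234578. FvH4_3g31640, a BEL1-like homeodomain protein, had 3.23 and 3.23. MYB genes had 3 of 44, and both MYB44-like genes were among them. MYB44 acts in stress responses of Arabidopsis. FvH4_2g33810 had 4.33 and 3.36, and FvH4_1g16770 had 3.25 and 2.76, so replicate 1 was higher for either gene. The replicate 1 peak of FvH4_2g33810 was classed as exonic.

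The bHLH list had 3 of 40. FvH4_6g38940, a PIF4-like gene of light and temperature signalling, had 2.97 and 3.54, and FvH4_5g01160 (bHLH36) had 3.06 and 3.05. NAC genes had 1 of 33, FvH4_7g12150, a NAC domain-containing protein, with 3.96 and 3.72 downstream of the gene. Zinc finger genes had 5 of 133 (3.76%). FvH4_4g27300, JAGGED, which shapes lateral organs in Arabidopsis, had 3.55 and 3.46. FvH4_3g43080, a stress-associated A20 and AN1 protein, had 3.24 and 3.76. The shares of these families lay within counting error of 5.83%.

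Hormone genes had 5 of 120 (4.17%, 1.79 to 9.38). The abscisic acid list, which holds all genes described as protein phosphatases 2C, had 3 of 41. FvH4_2g29850, a probable protein phosphatase 2C, had 3.93 in both replicates on chromosome 2 from 23102728 to 23103451; not every phosphatase of this type acts on abscisic acid. FvH4_1g12750, abscisic acid 8'-hydroxylase 3-like, an enzyme that breaks the hormone down, had 4.12 and 3.001. Auxin genes had 1 of 41, FvH4_1g11980, an auxin-induced 15A protein, with 3.14 and 3.06. Both replicate peaks behind this entry were classed as exonic. At a −log10 q of at least 10 the auxin list had 0 of 28, which allows up to 10.7%, although the replicate lists had 4 of 55 and 5 of 61. Ethylene genes had 1 of 15, FvH4_4g33740, with 2.67 and 3.36. Its replicate 1 peak was assigned to FvH4_4g33730. The ethylene list had 0 of 23 in replicate 1, which allows up to 13.04%, and 2 of 25 in replicate 2. FvH4_4g33740 is described as a homolog of 1-aminocyclopropane-1-carboxylate oxidase and need not make ethylene. Genes of gibberellin, cytokinin and brassinosteroid had 0 of 23, which allows up to 13.04%, although each replicate list had 2.

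Genes of fruit ripening processes had 15 of 251 (5.98%, 3.65 to 9.62), close to all genes. Pectin enzymes had 2 of 39. FvH4_3g29490, the pectinesterase QRT1, which separates pollen grains in Arabidopsis, had 4.18 and 3.002, and FvH4_7g18400, a probable pectate lyase, had 3.28 and 3.49. Expansins and wall glycan enzymes had 6 of 74 (8.11%). FvH4_2g36610, a probable xyloglucan glycosyltransferase, had 3.17 and 3.69, and FvH4_6g16910, expansin-A9-like, of the proteins that loosen the wall, had 3.13 and 3.20.

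The flavonoid list had 1 of 41, FvH4_6g47620, an anthocyanidin glucosyltransferase, which adds the sugar to red pigments, with 3.32 and 3.75. Sugar genes had 4 of 68. FvH4_6g40710, chloroplastic glucose-6-phosphate dehydrogenase, which feeds the pentose phosphate pathway, had 3.78 and 3.85. FvH4_3g24390, an alkaline or neutral invertase, which splits sucrose, had 3.28 and 3.52. The aroma list had 2 of 30. FvH4_5g10640, alcohol dehydrogenase-like, had 2.57 and 2.69, while FvH4_2g31130 is a chloroplast NAD(P)H-quinone oxidoreductase subunit matched by its words and has no stated part in aroma, with 3.18 and 3.60 at its stronger entry.

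Pentatricopeptide repeat proteins, which process RNA in organelles, had 14 of 280 (5.00%), led by FvH4_6g08080 with 3.99 and 3.71, in a family with 67.2% of its entries in exons. RNA helicases and splicing factors had 3 of 83, with FvH4_1g28630, splicing factor 3B subunit 3-like, at 3.93 and 4.397. Histone and chromatin genes had 4 of 66, with FvH4_2g27840, a histone-lysine methyltransferase, at 3.92 and 3.84. Only 1 of these 4 genes remained when both replicate peaks had to be at gene ends, a setting chosen after seeing the data. Cytochrome P450 genes, oxidising enzymes of many pathways, had 6 of 68 (8.82%), with FvH4_2g16500 at 3.82 and 3.798. With a −log10 q of 10 or more the P450 count was 6 of 37 (16.2%, 7.65 to 31.1), an interval above the 5.33% of all genes.

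UDP-glycosyltransferases had 5 of 65, with FvH4_6g39850 at 3.88 and 3.41. ABC and MATE transporters had 3 of 61, with FvH4_7g21390 at 2.95 and 2.59. Of the photosystem and chlorophyll genes 1 of 12 had a gene-end peak, FvH4_3g21020, a chlorophyll a-b binding protein, with 3.39 and 3.48. Heat shock proteins and chaperones had 5 of 97, with FvH4_4g29020, heat shock protein 83, at 3.77 and 3.28. With all merged entries, the interval of each of these lists, from pentatricopeptide repeat proteins to chaperones, held 5.83%.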

How the data were processed

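FvSEP3 binding was profiled by DAP-seq in 2 IP replicates, with 1 Input library. The submitters' processing notes name BWA for alignment and MACS2 for peak calling; versions, settings and genome build are not given in the sources used here. Each replicate has its own list, and the merged list held peaks found in both, per the file headers. For each peak the authors deposited the peak caller's −log10 p-value and −log10 q-value and a fold enrichment, a ratio of signal to background, and in the merged list their mean of both replicates (the mean −log10 q was computed here from both replicates). The class, the distance to the gene start in bp, the assigned gene and its description are the authors' deposited annotation.

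Entries were selected by class, and merged entries were joined to replicate peaks by interval. Across both lists 0 peaks had a fold under 2. Of the merged entries 3 had no replicate peak of the same interval in both lists, 0 of them at gene ends. Overlap needed at least 1 bp and was checked with bedtools 2.31.1 (13597 shared replicate 1 peaks by either method) and on simulated data. Shares carry 95% Wilson intervals. For lists with 0 genes the share said to be allowed is 3 divided by the number of genes, which lay somewhat below the Wilson upper limit. Calculations used Python 3.11.15, pandas 2.3.3, numpy 2.4.6 and scipy 1.17.1.

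The files gave no gene ends or strands, so the planned check against the assigned gene's end was replaced by the sign of the deposited distance. Members, function lists and comparisons were chosen with earlier results of these data known. Genes named were the 10 strongest entries (1 is not reported here), the 5 strongest downstream, the leading 1 or 2 genes of each list (all MADS-box genes), up to 5 genes with several gene-end entries and the 2 entries with the widest replicate difference; other names are said to be chosen after their values were seen, or are the list members whose description fits the list poorly, the extremes of distance and the contig gene, also picked on seeing them. Alternatives were each replicate list alone, a −log10 q of at least 10, folds at or above the merged median, chromosomes only, other comparison classes, means, reciprocal overlap of at least 50% and midpoints within 100 bp. For the function lists, only entries downstream of the assigned gene's start were also counted. Whether the IP replicates came from separate plants is not stated beyond their description as biological replicates, so their spread may be partly technical.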

Additional observations from a re-analysis of the deposited data

How the results depend on the processing

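The difference in median fold between gene ends and other entries was -0.0058. It stayed between -0.0330 and 0.0167 under every alternative run, and its sign was not fixed. Its values with each replicate list alone ran from -0.0297 to -0.0082. All lay within 1 SD of the main value. That SD comes from the 2 replicate differences, which are themselves 2 of the alternatives, so it does not measure stability. The share of entries at gene ends was 4.78%, with 5.10% and 5.19% in the replicate lists, and 3.99% when both replicate peaks had to be at gene ends, a setting chosen after seeing the data. The recurrence difference of -4.98 percentage points was -4.38 with reciprocal overlap, -4.15 with midpoints within 100 bp, -2.40 with a −log10 q of at least 10, -5.82 from replicate 2 to replicate 1 and -12.8 against last exons (chosen after seeing the data), negative in all of these. The share upstream of the assigned gene, 9.29%, was 7.20% with a −log10 q of at least 10, 7.96% at or above the median fold, and 9.09% to 10.2% in the replicate lists. The number of named-list genes with a gene-end entry, 153, was 87 and 77 under those thresholds, which keep fewer entries, and 244 to 265 in the replicate lists, which hold more. It was 139 with only entries downstream of the assigned gene's start, where F-box genes went from 20 to 17 and WRKY genes from 3 to 2. All 33 lists then stayed at 0 or within a factor of 1.5. With both replicate peaks required at gene ends the number was 129. Under that setting the counts of 30 of the 33 lists stayed at 0 or within a factor of 1.5. Those of auxin (1 to 0), histone and chromatin (4 to 1) and RING and U-box genes (11 to 7) did not. At a −log10 q of at least 10, where all genes had 5.33%, the interval lay above that value for ribosomal proteins (9 of 74, 12.2%) and cytochrome P450 genes (6 of 37, 16.2%), and no longer below it for receptor-like kinases (5 of 164, 3.05%). Leaving out a replicate was not possible for recurrence, which needs both lists, and the definition by 500 bp around gene ends was not run, as the files give no gene ends. No paired analysis was possible because the Input shares fewer than 2 replicate numbers with the IP samples and no result comes from a fitted model. Read depth is unknown, and 2 replicates allow no test below 0.05.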
